A study of Homo sapiens with 6 samples.

Results

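The genes described here encode the 3 atlastins and 7 other proteins that give the endoplasmic reticulum (ER) its shape. They are ATL1, ATL2, ATL3, RTN3, RTN4, REEP3, REEP5, LNPK, CKAP4 and ARL6IP1, taken by symbol from the 28979 genes counted, and 10 of 10 were found. They were measured by RNA sequencing in 6 libraries of MDA-MB-231, an established mesenchymal-like line from a human breast cancer, with 3 libraries labelled Ang and 3 labelled Con. The series design describes MDA-MB-231 cells given exosomes, small vesicles released by cells, from hypertrophic or from normal cardiomyocytes, in a search for target genes of microRNAs. What Ang and Con stand for is not in the labels. Separate cultures are not stated either, so p-values reflect the variation among these 6 libraries alone, and it may be technical. ATL1 was chosen by its Ang against Con value in an earlier analysis of these same counts, in which it was lower in Ang once the strand make-up of the libraries was allowed for. The other genes were added as its functional relatives. The Ang against Con values below therefore describe the genes and test nothing about ATL1.

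The ER is a single membrane network of flat sheets and thin tubules. Reticulons (RTN) and the related REEP proteins insert hairpins into the membrane and curve it into tubules, atlastins are membrane-bound GTPases of the dynamin family that fuse tubules into a network, and lunapark (LNPK) sits at the junctions. CKAP4 holds the membranes of sheets apart, and ARL6IP1 is a small hairpin protein of tubules. ATL1 is best known from neurons and from hereditary spastic paraplegia, a disease of long motor axons, whereas ATL2 and ATL3 are the broadly expressed atlastins.

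Total counts ran from 3482629 to 3961442 in the Ang libraries and from 3369212 to 5437190 in the Con libraries. Of the genes marking MDA-MB-231, 8 of 8 were tested, with a summed level of 2749 to 2941 CPM (the count scaled to library size) in Ang and 2184 to 2900 CPM in Con. Of 8 genes listed as absent or low in this line 4 were tested, with a summed level of 283 to 320 CPM in Ang and 250 to 314 CPM in Con. ESR1 and PGR, the oestrogen and progesterone receptor genes, had 7 and 1 counts over all libraries, while the epithelial keratin gene KRT18 had 138 to 220 CPM and the receptor gene ERBB2 85.8 to 128 CPM. Of the neuronal markers 3 of 7 were tested, with a summed level of 7.56 to 22.3 CPM in Ang and 12.2 to 24.2 CPM in Con, and STMN2 and SNAP25 had 1 and 2 counts in all. Of the cardiomyocyte markers 9 of 12 were matched and 2 were tested, and nearly all of their summed level, 215 to 258 CPM in Ang and 205 to 310 CPM in Con, was that of TTN.

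The counts carry an uncertainty of strand that touches every gene named here. In 250 pairs of a non-coding gene lying under a protein-coding gene on the other strand, the non-coding gene had more counts per base, with median ratios of 32.9 to 35.4 in the Ang libraries and 39.3, 23.2 and 41.1 in Con replicates 1 to 3. Con replicate 2 thus stood apart from the other 5 libraries. How far the counts of a protein-coding gene come from its own RNA is thus uncertain, and in bulk RNA fewer cells of a type and less RNA per cell cannot be told apart.

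Per kilobase of annotated exon, CKAP4, ATL1 and RTN4 had the highest levels of the 10 genes. Over the 6 libraries CKAP4 averaged 37.3 ± 3.62 CPM per kilobase (SD, n = 6), ATL1 30.5 ± 8.999 and RTN4 30.3 ± 2.48. The range of ATL1 overlapped those of both others, and CKAP4 lay above RTN4 in 6 of 6 libraries without overlap. ATL1 lay below RTN4 in 3 of 3 Ang libraries and in Con replicate 2, and above CKAP4 and RTN4 in Con replicates 1 and 3. The next level, that of RTN3 at 16.5 ± 1.69 CPM per kilobase, lay below RTN4 in 6 of 6 libraries with no overlap of the ranges.

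ARL6IP1 followed at 12.7 ± 1.88 CPM per kilobase, REEP5 at 11.9 ± 1.35 and REEP3 at 11.4 ± 1.36, 3 neighbours that changed places between libraries. ATL3 had 8.57 ± 0.895 CPM per kilobase and lay above ATL2, at 4.60 ± 1.21, in 6 of 6 libraries without overlap. LNPK had the lowest level, 4.55 ± 0.971 CPM per kilobase, and was not separated from ATL2, which lay above it in 3 of 6 libraries.

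**Figure D1:**
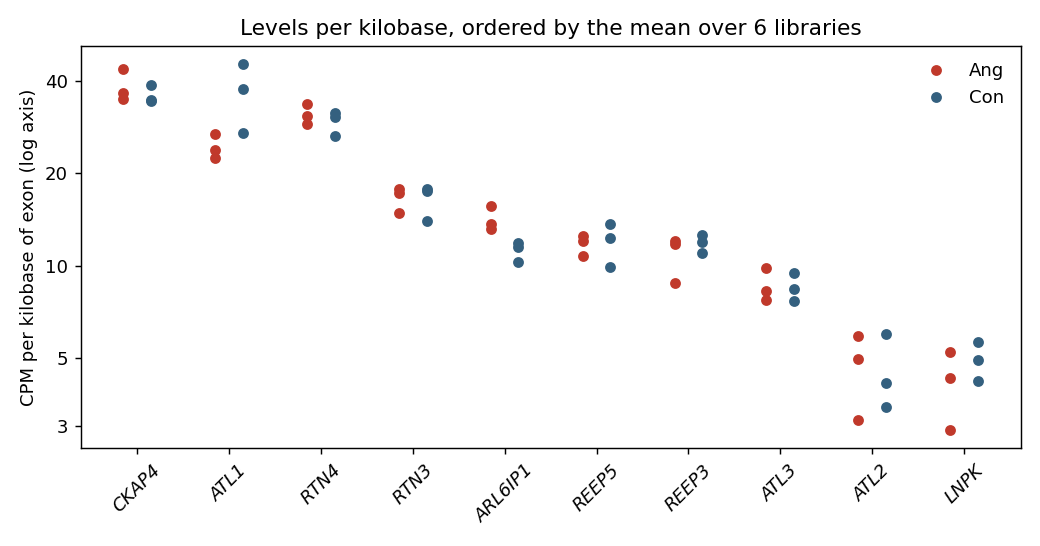
Level of each gene in CPM per kilobase of exon on a log axis, ordered by the mean over the 6 libraries, with 1 point per library and Ang left of Con. ATL1 is the second gene in the order by the mean over both groups, its 3 Ang points lie at 22.4 to 26.8 and its 3 Con points at 27.1 to 45.4, while the points of the 2 groups mix for 8 of the other 9 genes.

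ATL1 thus held most of the atlastin counts in every library. Its share of all atlastin counts was 53.1%, 55.6% and 55.6% in Ang replicates 1 to 3, against 66.0%, 57.0% and 69.3% in Con replicates 1 to 3. The exact binomial (Clopper-Pearson) 95% intervals, which cover counting error only, were 51.7% to 59.5% in Ang replicate 3 and 54.2% to 59.8% in Con replicate 2, so these libraries of the 2 groups were not separated by their counts. Per kilobase the share was 64.9% ± 1.66 in Ang and 73.2% ± 4.85 in Con (SD, n = 3 each). A gene known mainly from neurons was therefore counted above its broadly expressed relatives in cells with few counts for neuronal markers. The part of reads from the other strand in this order was not tested.

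ATL1 (ENSG00000198513) lies on the + strand of chromosome 14 at 50532509 to 50633068 of GRCh38 in GENCODE release 29, with 4360 exon bases. Of these, 22.6% lie under exons of 2 genes on the other strand, the highest share among the 10 genes. SAV1, a scaffold gene of the Hippo growth control pathway, covers 840 bases (50632229 to 50633068), which hold the whole annotated 3′ untranslated region of ATL1, 729 bases, and 111 coding bases. MAP4K5, a kinase gene, covers 147 bases at the other end, in the first exon bases of ATL1 (50532509 to 50532655).

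**Figure D2:**
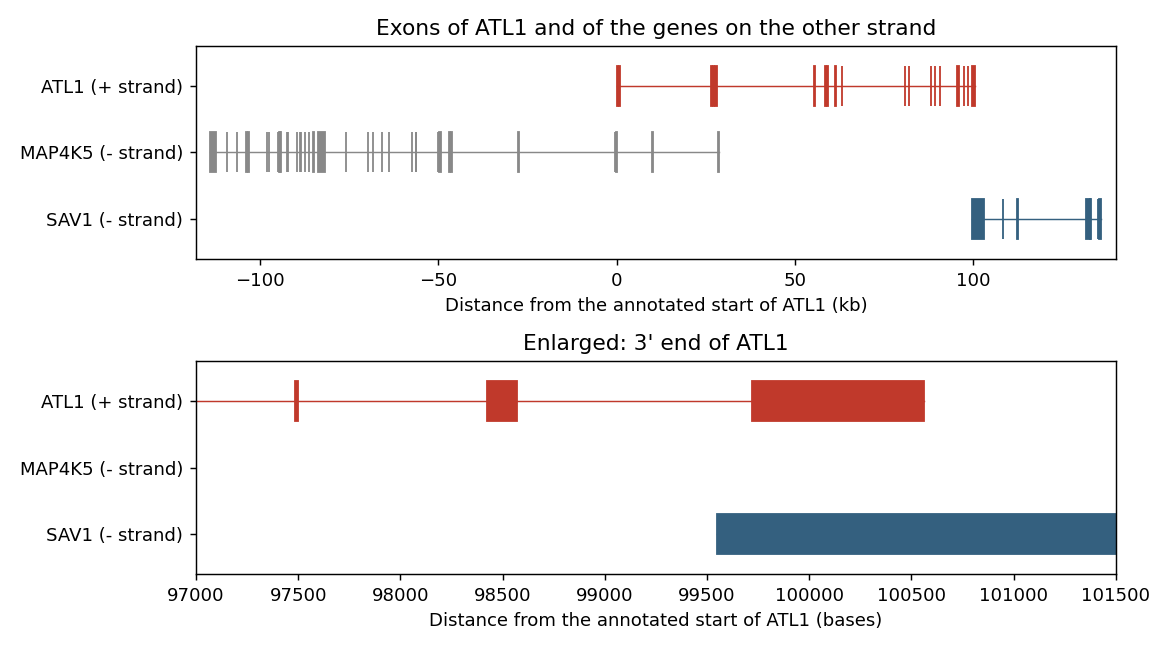
Exon blocks of ATL1, MAP4K5 and SAV1 by distance from the annotated start of ATL1, in kilobases above and in bases for the enlarged 3′ end below, with introns as thin lines. The last exon of ATL1 lies wholly within an exon at the 3′ end of SAV1, which is on the other strand.

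In the comparison of Ang with Con, ATL1 was the member with the lowest log2 fold change. ATL1 had 117, 97.8 and 104 CPM in Ang replicates 1 to 3, against 164, 118 and 198 CPM in Con replicates 1 to 3 (raw counts of 398, 388 and 361, against 776, 700 and 629). All 3 Ang values lay below all 3 Con values, but Con replicate 2 lay only just above Ang replicate 1. With libraries scaled to total counts alone, the same 2 libraries had 114 CPM in Ang replicate 1 and 129 CPM in Con replicate 2. The log2 fold change was -0.59 ± 0.18 (SE), a fold of 0.666 with a 95% interval of 0.522 to 0.851. By size this was the 876th lowest of 14547 tested genes, and by unadjusted p the 13th smallest.

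The spread of ATL1 differed within the Con group. Its coefficient of variation was 24.9% in Con and 9.07% in Ang, and the low Con value came from replicate 2, the library with the strand ratio of 23.2. Con replicates 1 and 3, with strand ratios of 39.3 and 41.1, held the high values of 164 and 198 CPM. The Ang libraries had strand ratios of 32.9 to 35.4, above that of Con replicate 2 and below those of Con replicates 1 and 3. Their ATL1 levels lay below those of all Con libraries. What part the strand make-up has in these levels was not tested. With the strand ratio as a covariate, the fit in which ATL1 was first noticed, the log2 fold change was -0.59 ± 0.12. Leaving out Con replicate 2 gave -0.76 ± 0.14, and leaving out Con replicate 3 gave -0.41 ± 0.18.

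The genes on the other strand of ATL1 had values that overlapped between the groups. As the strand of the counts is uncertain, the values here do not show whose RNA gave the reads in the shared bases. That was not tested. SAV1 had 63.4, 60.3 and 69.3 CPM in Ang replicates 1 to 3, against 66.9, 69.0 and 68.6 CPM in Con replicates 1 to 3, a log2 fold change of -0.08 ± 0.19. MAP4K5 had 84.2, 64.3 and 66.4 CPM in Ang, against 66.9, 65.8 and 67.0 CPM in Con (0.11 ± 0.19). Per kilobase the counts assigned to ATL1 were more than those of either gene, at 24.4 ± 2.21 CPM in Ang and 36.7 ± 9.15 CPM in Con, where SAV1 averaged 11.4 CPM in Ang and 12.1 CPM in Con and MAP4K5 9.40 CPM in Ang and 8.74 CPM in Con.

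The other atlastins had values that overlapped between the groups. ATL2 had 28.8, 15.4 and 24.3 CPM in Ang replicates 1 to 3, against 20.3, 16.9 and 29.3 CPM in Con replicates 1 to 3. ATL3 had 74.5, 62.8 and 58.9 CPM in Ang, against 64.0, 72.2 and 58.2 CPM in Con. The log2 fold changes were 0.05 ± 0.28 for ATL2 and 0.01 ± 0.19 for ATL3. The 95% intervals of the fold, 0.709 to 1.52 for ATL2 and 0.772 to 1.31 for ATL3, leave room for changes of up to those sizes.

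Under ATL3 on the other strand lies ENSG00000256789, an antisense gene of 423 exon bases on chromosome 11 (63637677 to 63658962), 118 of which it shares with ATL3. It had 195 CPM per kilobase in Ang and 201 CPM per kilobase in Con, where ATL3 had 8.61 and 8.52. The antisense gene had 81.9, 73.6 and 91.6 CPM in Ang, against 96.9, 59.5 and 98.1 CPM in Con, and its groups overlapped.

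The groups overlapped for the reticulons, which curve tubules. RTN3, also a receptor for the selective degradation of ER tubules, had 100.35, 103 and 85.8 CPM in Ang replicates 1 to 3, against 80.9, 103 and 102 CPM in Con replicates 1 to 3. RTN4, known as Nogo for its role in limiting axon growth, had 192, 204 and 224 CPM in Ang, against 175, 210 and 202 CPM in Con. The log2 fold changes were 0.02 ± 0.18 for RTN3 and 0.08 ± 0.17 for RTN4. On chromosome 11, 9524 bases lie between the starts of RTN3 and ATL3, the 2 genes pointing away from each other, at 63681446 to 63759891 for RTN3 on the + strand and 63624087 to 63671921 for ATL3 on the - strand.

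The REEP genes gave small differences too. REEP3, which clears ER from chromosomes in mitosis, had 61.9, 63.0 and 46.2 CPM in Ang, against 62.9, 58.0 and 66.4 CPM in Con. REEP5, a hairpin protein of tubules, had 45.5, 52.9 and 51.1 CPM in Ang, against 57.9, 52.1 and 41.8 CPM in Con. Values of -0.13 ± 0.20 for REEP3 and -0.03 ± 0.21 for REEP5 were found for the log2 fold changes, and again the groups overlapped. On the other strand of REEP5 lies SRP19, a signal recognition particle gene that shares 368 exon bases and had 5.92 to 11.3 CPM.

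LNPK, the junction protein, had 39.3, 47.9 and 26.6 CPM in Ang, against 51.5, 45.1 and 38.4 CPM in Con. CKAP4, the sheet spacer, had 159.6, 133 and 127 CPM in Ang, against 127, 141 and 125 CPM in Con. The groups overlapped for both, with log2 fold changes of -0.25 ± 0.22 for LNPK, the second lowest of the 10, and 0.09 ± 0.18 for CKAP4. TCP11L2, which shares 220 exon bases with CKAP4 on the other strand, had 5.87, 5.29 and 8.38 CPM in Ang, against 11.2, 7.78 and 11.95 CPM in Con (-0.65 ± 0.42).

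ARL6IP1 was the member with the highest log2 fold change of Ang against Con. It had 57.2, 50.2 and 48.2 CPM in Ang replicates 1 to 3, against 42.2, 37.7 and 43.4 CPM in Con replicates 1 to 3. All 3 Ang values lay above all 3 Con values, the opposite of ATL1. The log2 fold change was 0.34 ± 0.21, a fold of 1.26 with a 95% interval of 0.943 to 1.69 that includes 1. No exon on the other strand overlaps ARL6IP1 in the annotation used, and 546 of its exon bases are shared with another gene of its own strand, ENSG00000260342, that was not analysed here.

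**Figure D3:**
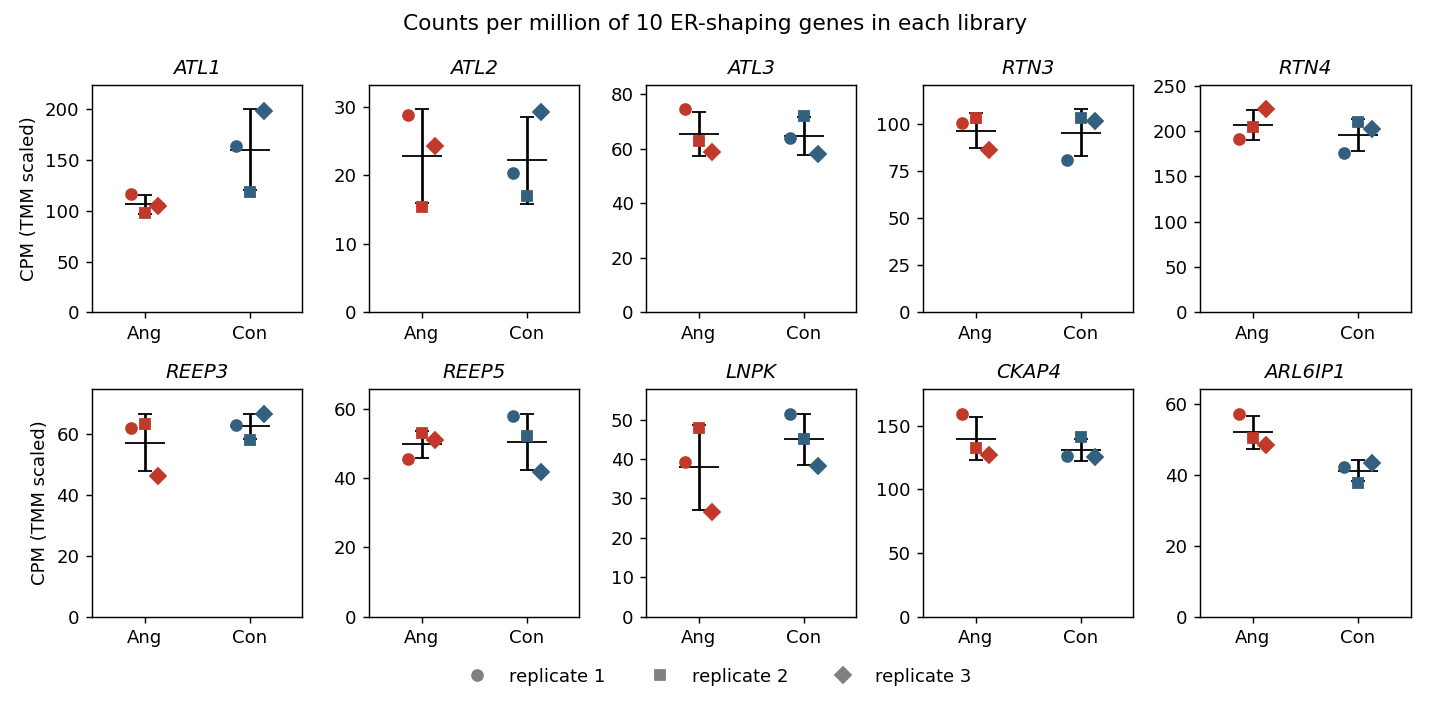
CPM of each of the 10 genes in each library, with Ang left of Con, a marker shape per replicate number, and a horizontal line with a bar for the mean ± SD of 3 libraries. The groups are separated for ATL1, lower in Ang, and for ARL6IP1, higher in Ang, and overlap for the other 8 genes.

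Set side by side in the fit of all 6 libraries, ATL1 had the largest difference of the 10 genes in either direction. The log2 fold changes of the other 9 genes ran from -0.25 to 0.34 with a median of 0.02. Of their intervals 0 of 9 excluded 0, where that of ATL1 did. For all tested genes the median was -0.01, and 3.4% of genes had an interval that excluded 0. The groups did not overlap for 2 of the 10 genes, beside 8.16% of all tested genes, and lay lower in Ang for 1 of 10, beside 4.54%. These counts rest on the values that chose ATL1, so nothing is read from them. After Benjamini-Hochberg adjustment over all 14547 genes, the edgeR quasi-likelihood test called 0 of the 10 genes, beside 0% of all genes, and the smallest adjusted p of any gene was 0.999. At an unadjusted p under 0.05 there were 494 genes (3.4%), of which those lower in Ang made up 1.98% of all genes, with ATL1 the single member among them, and DESeq2 and limma-voom called 0 genes as well. For 10 of 10 members the interval lay within 2-fold in either direction, as it did for 9340 of the 14547 tested genes.

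**Figure D4:**
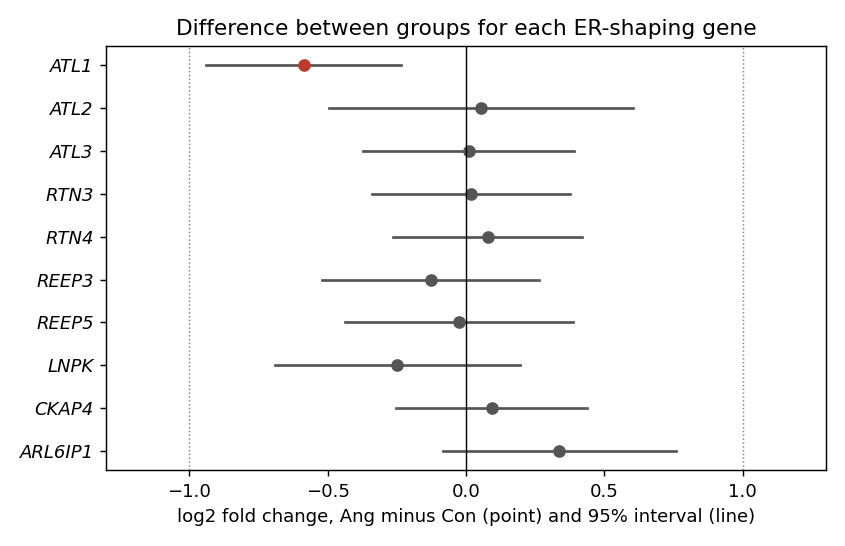
Log2 fold change of Ang minus Con for each gene, with the 95% interval of the edgeR fit as a line and dotted lines at a change of 2-fold. The interval of ATL1 lies below 0, from -0.94 to -0.23, and those of the other 9 genes include 0.

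Across the libraries the genes did not move as a block. Among the 3 Con libraries, replicate 2 held the lowest value for ATL1, ATL2, REEP3 and ARL6IP1, and the highest for ATL3, RTN3, RTN4 and CKAP4. Its value was the middle one for REEP5 and LNPK. The profile nearest to that of ATL1 among the other members was that of REEP3, with a root mean square difference of 0.31 in centred log2 CPM over 6 libraries, which was rank 1498 among 9798 genes of at least 10 CPM.

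The 5 genes whose profile over the 6 libraries was most like that of ATL1 were PMS2P7, PUS3, NID2, WNT2B and ENSG00000280077, with differences of 0.08 to 0.10 by the same measure. PMS2P7, a pseudogene that can share reads with its gene family, had 22.3, 19.2 and 17.3 CPM in Ang, against 29.4, 22.5 and 37.1 CPM in Con. NID2, a basement membrane gene also on chromosome 14, had 13.8, 11.9 and 12.7 CPM in Ang, against 17.3, 15.6 and 25.2 CPM in Con. WNT2B, a secreted signalling protein gene, had 25.2, 22.9 and 25.4 CPM in Ang, against 33.4, 29.1 and 48.1 CPM in Con. Each has the order of the Con libraries seen for ATL1, with replicate 3 highest and replicate 2 lowest. Genes picked for likeness to ATL1 would be likely to have it, so nothing is read from this order. PUS3, a pseudouridine synthase gene, and ENSG00000280077 had 12.4 to 15.3 and 10.8 to 15.3 CPM in Ang, against 13.5 to 26.7 and 15.4 to 22.3 CPM in Con. The Con libraries had the same order for both. Likeness was ranked over 9798 genes and is a description.

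Around the 10 genes, 43 further genes of ER shape, fusion, contact and turnover were listed, of which 41 were tested. The edgeR test called 0 of 41, and 0 of 41 had an unadjusted p under 0.05. Log2 fold changes were below 0 for 18 and above 0 for 23, with a median of 0.02 beside -0.01 for all genes, and for 30 of 41 the interval lay within 2-fold.

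Among partners of the atlastins and the ER fusion machinery, 5 of 11 values were below 0. BNIP1, a SNARE of ER membranes, had 5.13 ± 1.14 CPM in Ang and 8.75 ± 2.27 CPM in Con (-0.75 ± 0.47), the 1 gene of the 41 whose groups did not overlap, beside 8.16% of all tested genes. SEC22B, a SNARE of the early secretory pathway, had 50.5 ± 4.88 CPM in Ang and 45.9 ± 2.597 CPM in Con (SD, n = 3 each). SPAST, a microtubule-severing enzyme that binds ATL1 and is named here after its value was seen, had 11.8 ± 6.31 CPM in Ang and 11.5 ± 0.174 CPM in Con.

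Of the other reticulons and REEP genes, 4 of 6 were tested, and RTN1, a reticulon of neurons named here after its value was seen, was not, at 0.193 ± 0.334 CPM in Ang and 0.532 ± 0.651 CPM in Con. REEP2, a REEP of neurons, had 10.03 ± 3.86 CPM in Ang and 6.56 ± 3.12 CPM in Con (0.60 ± 0.43). The receptors for degradation of ER were split 3 below and 4 above 0, with RETREG3, a reticulon-like receptor, at 126 ± 11.1 CPM in Ang and 148 ± 28.3 CPM in Con and CCPG1 at 8.94 ± 3.52 CPM in Ang and 5.48 ± 2.39 CPM in Con.

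Sheet and translocon genes included the most abundant gene of the list. RRBP1, the ribosome-binding protein of rough ER, had 770.2 ± 33.4 CPM in Ang and 769.8 ± 17.7 CPM in Con, and SEC61A1, the pore of the translocon, had 78.0 ± 7.86 CPM in Ang and 88.1 ± 16.4 CPM in Con. Of the tubule and junction factors, INF2, a formin that builds actin at the ER, had 54.0 ± 4.76 CPM in Ang and 41.5 ± 16.0 CPM in Con (0.37 ± 0.22), and ARL6IP5 had 68.3 ± 6.89 CPM in Ang and 61.0 ± 9.86 CPM in Con. The membrane tethers were the tightest group, with log2 fold changes from -0.16 to 0.10. ESYT2, a tether to the plasma membrane, had 131 ± 1.51 CPM in Ang and 135 ± 12.6 CPM in Con, and VAPB 29.9 ± 2.91 CPM in Ang and 33.3 ± 6.83 CPM in Con.

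Because the design names target genes of microRNAs as the aim, the longest annotated 3′ untranslated regions were searched for 7-base matches to bases 2 to 8, the seed, of 18 microRNAs known from heart muscle, hypertrophy or vesicles. ATL1 held 0 matches in its 729 bases, and ATL2 held 0 in 1329 bases. Such regions had a median of 1442 bases over 11072 tested genes, with a median of 2 of the 18 seeds matched, so the region of ATL1 was a short one, at the 29.3th percentile. The absence says only that these letters are not in this region, and all of it is also covered by SAV1.

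Matches were found in the other 8 genes. LNPK, whose region of 6075 bases is the longest of the 10, held sites of 5 microRNAs. They include miR-208a-3p and miR-499a-5p, which are encoded within heart myosin genes, and miR-30a-5p. RTN4 and REEP5 held a site of miR-21-5p, which is raised in stressed heart. The microRNAs were chosen for this search, and contact with the sites was not tested. The mature sequences come from RefSeq on GRCh38.p14, with the seed in capitals. The sites come from GENCODE release 29 transcripts, with the match in capitals. All are shown 5′ to 3′ so that the matched letters can be read.
miR-208a-3p: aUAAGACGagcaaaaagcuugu
LNPK site, chr2:175924387-175924409 on the - strand: aactacttaatCGTCTTAaaact
miR-499a-5p: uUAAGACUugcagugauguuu
LNPK site, chr2:175929920-175929942 on the - strand: tggatatttatAGTCTTActgat
miR-30a-5p: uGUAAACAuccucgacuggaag
LNPK site, chr2:175929473-175929495 on the - strand: gtctatttaggTGTTTACattaa
REEP3 site, chr10:63622296-63622318 on the + strand: caagaacataaTGTTTACacagg
miR-21-5p: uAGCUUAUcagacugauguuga
RTN4 site, chr2:54972490-54972512 on the - strand: ttccaaagcacATAAGCTagaag
REEP5 site, chr5:112877515-112877537 on the - strand: tctttgtgttgATAAGCTgcaca

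A match to miR-208a-3p is rare, being held by 2.06% of the 11072 genes, while matches to miR-499a-5p were held by 12.1%, to miR-30a-5p by 19.0% and to miR-21-5p by 10.5%. REEP3 held 3 matches to miR-30a-5p, of which 1 is shown. Not shown are the matches of ATL3 to miR-30a-5p and of RTN3 to miR-499a-5p. The genes with these sites had log2 fold changes, given above, from -0.25 for LNPK to 0.08 for RTN4, and 0 of them passed the threshold. The most widely matched seed among the members was that of miR-23a-3p, with matches in ATL3, RTN3, REEP5, CKAP4 and ARL6IP1, beside 21.8% of all genes.

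**Figure D5:**
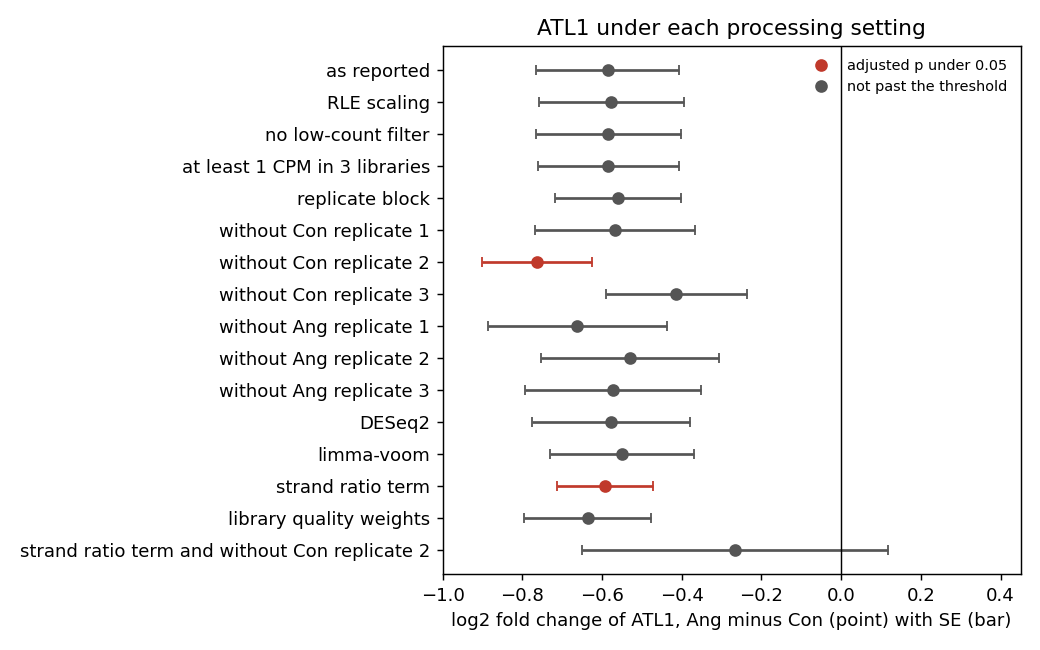
Log2 fold change of ATL1, Ang minus Con, with its SE under each processing setting that kept ATL1, red where the adjusted p was under 0.05. Values are below 0 in each of the 16 settings shown, from -0.76 without Con replicate 2 to -0.27 where that library was left out and a strand ratio term was added together.

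With Con replicate 2 left out, ATL1 passed the threshold of the edgeR test (adjusted p 0.00398), as 1 of 40 genes among 14867, a background of 0.269%. In those 5 libraries strand ratio and group had a correlation of -0.94, against 0.07 in all 6. Group and strand make-up can thus hardly be told apart in that fit. With the strand ratio term in all 6 libraries, ATL1 passed with an adjusted p of 0.0375 by edgeR, as 1 of 4 genes, a background of 0.0275%. ATL1 was first noticed in that fit, so its call there supports nothing about it. ATL1 was the single member called in either fit, and 0 genes of the wider list were called. With both changes made at once, the value was -0.27 ± 0.38, in 5 libraries in which the strand ratio was lower in each Ang library than in each Con library. In that fit 6 of the other 9 members lay farther from 0 than ATL1, and 0 of them passed the threshold. LNPK had -1.69 ± 0.62, ATL2 1.59 ± 0.78 and REEP5 -0.61 ± 0.55. REEP3 had -0.60 ± 0.53, RTN4 0.38 ± 0.34 and ARL6IP1 0.36 ± 0.57. Leaving out 1 library, LNPK ran from -0.45 ± 0.27 without Ang replicate 2 to -0.05 ± 0.26 without Ang replicate 3. In the same fits ATL1 had -0.53 ± 0.22 and -0.57 ± 0.22.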

How the data were processed

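Libraries were made from poly-T selected RNA with random priming and 15 PCR cycles, per the labels' protocols, which name no step that marks the strand. For each library the authors deposited 1 table of raw read counts by Ensembl ID. HTSeq 0.9.1, DESeq 1.39.0 and build GRCh38 are named, per the submitters' processing notes. The aligner, strand setting and annotation release were not given in the sources used here.

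Counts were fitted with edgeR 4.0.16 in R 4.3.3 after filterByExpr and trimmed mean of M values (TMM) scaling, Ang against Con, by the robust quasi-likelihood test with Benjamini-Hochberg adjustment over 14547 genes and a threshold of 0.05. CPM are TMM scaled. DESeq2 1.42.0 and limma 3.58.1 served as alternatives. Exon lengths and overlaps came from GENCODE release 29 with bedtools 2.31.1, matched for 28192 of 28979 IDs. Strand pairs needed 90% overlap and 300 counts in the coding gene. A count of 0 allows 3 counts, for counting error only, which is 0.552 to 0.890 CPM when scaled to total counts alone, without TMM.

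Members, lists and alternatives were chosen with earlier results of these data known. Named from the wider list were the gene of smallest p and the most abundant gene of each group, with SPAST and RTN1 added after their values were seen, and every gene on the other strand of a member that has counts. Likeness to ATL1 was the root mean square difference in log2 CPM, with 0.5 CPM added, centred on each gene's mean.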

Additional observations from a re-analysis of the deposited data

How the results depend on the processing

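The called genes stayed at 0 with DESeq2, limma-voom, RLE scaling, either other filter on low counts and genes free of other-strand exons, and became 4 with the strand ratio term and 1 with library quality weights. The fit of genes free of other-strand exons left out ATL1, ATL3, REEP5 and CKAP4, so it could not call them. Leaving out 1 library gave 0 to 40 genes called, 40 of them when Con replicate 2 was left out and 1 when Con replicate 1 was. The called members became 1, ATL1, with the strand ratio term and ran from 0 to 1 leaving out 1 library. The wider list had 0 calls in each setting run. Strand ratio and Con replicate 2 left out together, added after the data were known, gave 1 gene called, which was no member. The log2 fold change of ATL1 ran from -0.76 to -0.41 leaving out 1 library. It passed the threshold at -0.59 with the strand ratio term, the fit in which ATL1 was first noticed. For these changes the cause was not tested. For the other 9 members, 126 of 141 alternative values kept their sign and 15 changed it, with 0 calls. Over the 132 of these outside the fit with both changes, values ran from -0.45 to 0.39. Same-numbered libraries had correlations of deviations of 0.037, 0.068 and 0.036. These values cannot decide whether such libraries were paired, and the labels do not say. With a replicate block 0 genes were called, and ATL1 had -0.56 ± 0.16. Levels per kilobase moved by less than 1 SD with other lengths or scaling in 20 of 20 values. For ATL1 the level was 30.5 CPM per kilobase, and 39.5 when divided by exon bases free of other-strand exons. Its SD of 8.999 is taken over both groups. ATL2, with 243 counts in Ang and 289 in Con, had the widest interval of the members.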
